A study of Bos taurus with 28 samples.

Results

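GREB1L (ENSBTAG00000008275), STRA6 (ENSBTAG00000007348) and TIPARP (ENSBTAG00000012120) are 3 genes with ties to the steroid, retinoid and aryl hydrocarbon receptor (AhR) pathways. They were picked by name from 27607 genes in an anterior pituitary mRNA-seq table. They were picked because their levels had been seen to differ between diets in these calves, so that difference is given below as a description, and no test of it bears on them. All 3 were among the 14939 genes that passed the filter on low values.

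The animals were crossbred heifer calves (Holstein-Friesian X Angus), and mRNA from the anterior pituitary of each was sequenced at an age of 21 weeks. The high plane of nutrition (HI, n = 13) gave calves 1.5 kg of milk replacer in 10 litres a day and unlimited concentrates for a calf phase of 8 weeks, then unlimited concentrates and hay for 11 weeks after weaning. The moderate plane (MOD, n = 15) gave them 0.5 kg of milk replacer in 4 litres a day with 1 kg of concentrates, then 1 kg of concentrates and hay over the same weeks. The group sizes are those of the labels and differ from those the study gives, so the diet label of a calf may be in error, which bears on every diet difference and every value centred on diet. Each library is 1 calf, named here by its diet and its number in the labels, and the labels give no allocation block or sequencing batch.

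Nuclear receptors for estrogens and for retinoic acid are transcription factors that a small hydrophobic ligand switches on. AhR works in a like way but belongs to another protein family, and it binds dioxins and metabolites of tryptophan. In the anterior pituitary, estrogens act on lactotrophs and gonadotrophs, the cells that make prolactin and the gonadotropins. GREB1L is the paralogue of GREB1, a coactivator that estrogen induces, and it is needed for kidney and inner ear development. The study names GREB1L as a coactivator of the retinoic acid receptor and proposes that it may also act as an estrogen receptor. STRA6 is the cell surface receptor that takes up retinol from retinol binding protein. TIPARP, also called PARP7, is a mono-ADP-ribosyltransferase that AhR induces and that in turn represses AhR.

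Reads assigned to genes numbered 12669266 to 18217216 per calf (median 15822757 in HI and 15923476 in MOD). Values are reads scaled to a library of 1000000 after adjustment for composition (CPM), so that 1 read was worth 0.0482 to 0.0830 CPM. Defining pituitary hormones were abundant in all libraries, with PRL (prolactin) at 32023 to 267896 CPM and FSHB (the FSH beta subunit) at 271 to 3289 CPM. None of the 3 genes tracked the number of reads in a library over the 28 calves (permutation test, adjusted p = 0.531 for each). In bulk tissue, fewer cells of a type and less RNA per cell cannot be told apart.

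GREB1L, the paralogue of GREB1, was at 20.2 CPM in the lowest HI calf, 34.8 at the median and 75.4 in the highest. In MOD calves it was at 14.3 CPM in the lowest, 25.0 at the median and 41.4 in the highest. HI calves averaged 40.1 ± 15.8 CPM (SD, n = 13) and MOD calves averaged 26.2 ± 7.82 CPM (SD, n = 15). The diets overlapped between 20.2 and 41.4 CPM, and 11 of 13 HI calves lay above the MOD median and 5 lay above every MOD calf. The difference was 0.56 on the log2(CPM + 0.5) scale (SE 0.17), a fold of 1.48 in favour of HI. These values rested on 172 to 969 reads per calf.

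STRA6, the retinol receptor, was at 5.31 CPM in the lowest HI calf, 8.95 at the median and 29.5 in the highest. In MOD calves the lowest was 7.99 CPM, the median 15.0 and the highest 30.8. The mean of HI calves was 10.9 ± 6.54 CPM (SD, n = 13) and that of MOD calves 18.4 ± 8.36 CPM (SD, n = 15). A single HI calf, number 553, set the top of the HI range, since the next highest HI calf was at 16.6 CPM. In all, 11 of 13 HI calves lay below the MOD median. The difference was -0.75 (SE 0.24, HI minus MOD, log2 scale), a fold of 1.68 in favour of MOD, and it was -0.88 without calf 553. STRA6 had the fewest reads of the 3 genes, 65 to 515 per calf.

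TIPARP, the AhR target, was at 17.6 CPM in the lowest HI calf, 27.3 at the median and 40.5 in the highest. In MOD calves the lowest was 25.8 CPM, the median 34.4 and the highest 111. HI calves averaged 28.3 ± 6.61 CPM (SD, n = 13) and MOD calves averaged 44.2 ± 25.7 CPM (SD, n = 15). MOD calves 3622 (111 CPM) and 911 (99.8 CPM) stood apart from the rest, as the third highest MOD calf was at 50.1 CPM. Of the 15 MOD calves, 4 lay above every HI calf and 14 lay above the HI median. The difference was -0.52 (SE 0.18, HI minus MOD, log2 scale), a fold of 1.43 in favour of MOD, and it was -0.31 when calves 3622 and 911 were left out. TIPARP rested on 253 to 1669 reads per calf.

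**Figure D1:**
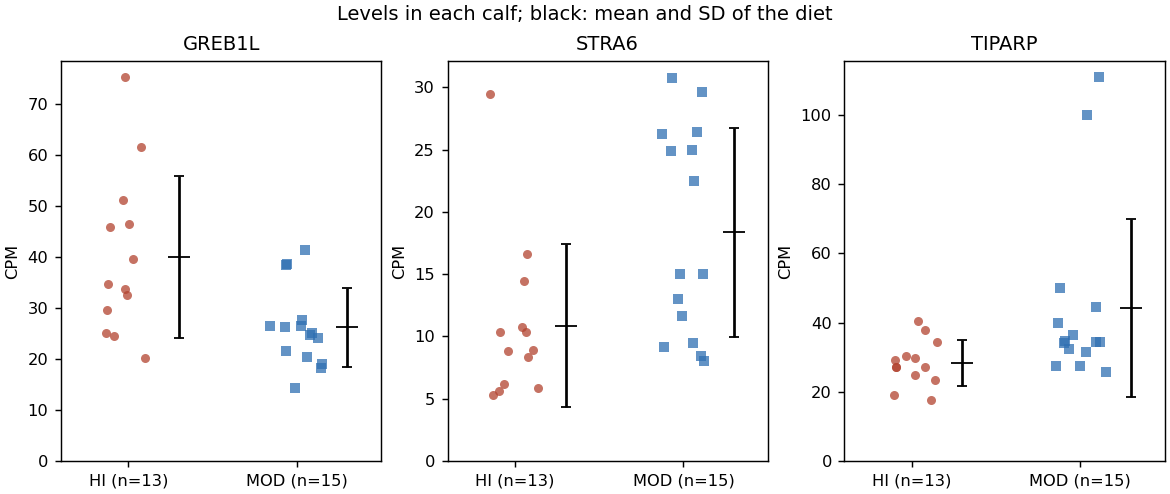
CPM of GREB1L, STRA6 and TIPARP in each calf (points; HI n = 13, MOD n = 15), with the mean and SD of each diet in black; all axes start at 0. GREB1L reached 75.4 CPM in HI, 1 HI calf had STRA6 at 29.5 CPM, and 2 MOD calves had TIPARP at 99.8 and 111 CPM.

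Genes were called between diets where the adjusted p-value was under 0.05 with over 1.5-fold change, and the fit across all genes (limma) called 125 (0.837% of those tested) and 0 of the 3 members. On the recovered reads the members called were 1 with the edgeR quasi-likelihood F-test (GREB1L), 2 with DESeq2 (GREB1L and TIPARP) and 3 with the edgeR exact test. Over all 14939 genes these tools called 173, 211 and 219, in that order. The members were chosen on this same contrast, so these counts repeat that choice and nothing is read from any of them. The log2 differences from the quasi-likelihood fit and the exact test of edgeR and from DESeq2 were 0.61 to 0.62 for GREB1L, -0.75 to -0.76 for STRA6 and -0.64 for TIPARP.

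The SD of log2 values within diets was 0.48 for GREB1L, 0.68 for STRA6 and 0.51 for TIPARP. Set against the trend of SD on mean level over all genes, these lay above 97.3%, 98.5% and 98.0% of the genes tested. Without regard to that trend, they lay above 90.5%, 97.4% and 92.4%. All 28 calves are in these shares, which were not computed without the calves that stood apart. The coefficient of variation of CPM within a diet was 23.3% to 60.3%, while counting alone would give 4.07% to 8.50%. For STRA6 in HI calves it was 60.3%, and 37.9% without calf 553. For TIPARP in MOD calves it was 58.1%, and 19.7% without calves 3622 and 911. Both of these were computed after seeing the values. The variation of each member within diets was then set against that of the other genes.

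The 3 members were first compared with each other. Over the 28 calves, with each diet centred on its own mean, Pearson r was -0.03 between GREB1L and STRA6 (Spearman rho 0.09), -0.05 between GREB1L and TIPARP (rho -0.11) and 0.27 between STRA6 and TIPARP (rho 0.26). No pair passed the permutation test (adjusted p = 0.867, 0.867 and 0.531 for r over the 3 pairs, and 0.642, 0.642 and 0.543 for rho). In HI calves alone, r was -0.22, -0.47 and -0.20 for the same pairs, and in MOD calves alone it was 0.17, 0.20 and 0.50. The test of the difference between diets gave adjusted p = 0.319, 0.110 and 0.110. Leaving out the 2 calves of each diet farthest from the median of the first gene gave r = -0.04, -0.18 and 0.49 over the remaining 24 calves. Within MOD it gave r = 0.65 for STRA6 and TIPARP (n = 13, permutation p = 0.0102, unadjusted), and within HI r = -0.82 for GREB1L and TIPARP (n = 11, permutation p = 0.00218, unadjusted). For STRA6 and TIPARP, r over both diets was 0.12 without MOD calves 3622 and 911, which had STRA6 at 24.9 and 25.0 CPM.

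Next, each tested gene was regressed on each member with diet as a term, so that a slope is the log2 change of a gene per doubling of the member among calves of the same diet. Slopes were tested with limma and adjusted over 14938 genes. The genes named below carry symbols only because the study listed them as differing between diets in these calves; 158 of them could be tested against each member. Each gene named as most alike was ranked among these 158 by diet-centred r over the 28 calves.

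GREB1L had 46 genes with a slope at an adjusted p-value below 0.05, of which 40 were positive (0.268% of genes) and 6 negative (0.0402%). Of these, 4 carried a symbol, and all 4 were positive. CAMK1D, a calcium and calmodulin dependent kinase, had the largest positive r of all genes tested. Its r was 0.83 (rho 0.83) over both diets, 0.82 in HI and 0.85 in MOD. CAMK1D rose by 0.76 log2 units per doubling of GREB1L (SE 0.10, limma adjusted p = 0.00015). In HI, CAMK1D was at 6.83 CPM in calf 1050, which had the lowest GREB1L, and at 20.8 CPM in calf 3620, which had the highest. In MOD it was at 4.23 CPM in calf 2551, the lowest for GREB1L, and at 11.4 CPM in calf 1057, the highest.

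ETV1, an ETS family transcription factor, rose by 0.72 log2 units per doubling of GREB1L (SE 0.10, limma adjusted p = 0.00015). Its r with GREB1L was 0.86 in HI and 0.74 in MOD. CHL1, a cell adhesion molecule of the L1 family, rose by 0.99 per doubling (SE 0.14, limma adjusted p = 0.000226), with r = 0.85 in HI and 0.74 in MOD. ETV1 ran from 42.9 to 103 CPM over MOD calves and from 55.6 to 183 over HI calves. CHL1 ran from 45.3 to 206 CPM over MOD calves and from 92.2 to 381 over HI calves. CAMK1D, ETV1 and CHL1 passed the test in all 28 fits that each left out 1 calf. The count of genes moving with GREB1L was 12 without HI calf 3620 and 70 without MOD calf 2551. Without MOD calves 3622 and 911, which are described below for TIPARP, 30 genes were positive (0.201%) and 2 negative (0.0134%).

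**Figure D2:**
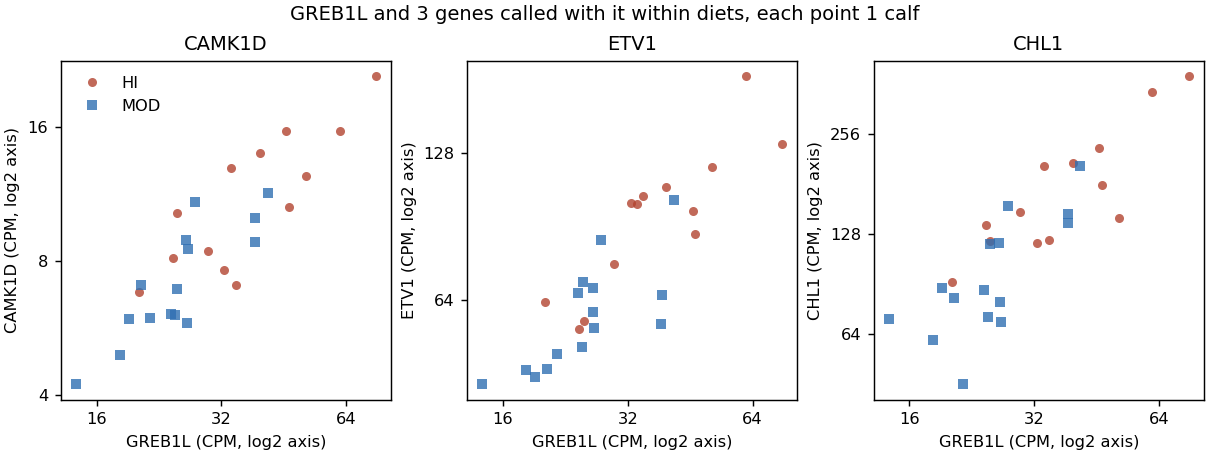
CPM of CAMK1D, ETV1 and CHL1 against CPM of GREB1L on log2 axes, each point 1 calf (HI n = 13, circles; MOD n = 15, squares). In both diets the points climb together, with r within a diet from 0.74 to 0.86.

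PLCH2, a phospholipase C, had a slope on GREB1L of 1.32 (SE 0.29, limma adjusted p = 0.0390), the largest of the 4. It was low, at 0.387 to 8.41 CPM in HI and 0.199 to 3.60 CPM in MOD. Its r was 0.88 in HI and 0.23 in MOD, and the difference of the slopes between diets did not pass the test (adjusted p = 0.159). PLCH2 passed in 19 of the 28 fits without 1 calf. It did not pass with library size as a covariate (slope 1.31, adjusted p = 0.0512) or with no filter other than 1 read (slope 1.32, adjusted p = 0.0549), where the slope hardly moved. In MOD calves only it did not pass either, and the slope was lower (0.38, adjusted p = 0.624). PLXNB3, a receptor for semaphorins, was next by r at 0.61 with an adjusted p-value of 0.104. The most negative r with a symbol were those of PRRT4 (-0.60), RGS1 (-0.45), which shortens G protein signals, and C2CD4B (-0.42), with adjusted p = 0.109, 0.272 and 0.313.

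No listed gene of a cell type or pathway passed the test with GREB1L. Of the estrogen list, 2 of 21 genes could be tested, ABHD6 (slope -0.22, SE 0.22) and PRL (slope 0.51, SE 0.22). On the retinoid list, RLBP1 had a slope on GREB1L of -0.19 (SE 0.30) and ALDH1A3 a slope of 0.36 (SE 0.33). Both lactotroph markers had positive slopes, 0.51 for DRD2, the dopamine receptor that restrains prolactin (SE 0.13, adjusted p = 0.0798), and 0.51 for PRL (adjusted p = 0.350). The r of DRD2 with GREB1L was 0.82 in HI and 0.20 in MOD, and that of PRL was 0.80 in HI and -0.20 in MOD. PRL was at 101908 CPM in HI calf 1050, the lowest HI calf for GREB1L, and at 224256 CPM in HI calf 3620, the highest. The difference of slopes between diets did not pass the test for either gene (adjusted p = 0.193 and 0.152). Among the 4 cell cycle genes tested, IQGAP3, a scaffold protein of dividing cells, had r = 0.85 in HI and -0.05 in MOD (adjusted p = 0.156 for the difference of slopes). Whether the makeup of cell types had a part in the GREB1L values was not tested.

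STRA6 had 0 genes with a slope at an adjusted p-value below 0.05 by limma and 0 by the edgeR quasi-likelihood F-test. At an unadjusted p-value below 0.05 there were 508 genes (3.40% of those tested), and the smallest adjusted p-value was 0.168. FSHB, which lies in gonadotrophs, had the largest r with STRA6 among genes with a symbol, 0.67 over both diets (rho 0.66), 0.76 in HI and 0.60 in MOD. Its slope was 0.90 (SE 0.19, limma adjusted p = 0.168). VCAN, the matrix proteoglycan versican, followed with r = 0.66 (0.74 in HI and 0.59 in MOD) and a slope of 0.73 (SE 0.16, adjusted p = 0.168). MINAR2, ADGRG2 and FST, which codes for follistatin, the activin-binding protein, had r = 0.61, 0.56 and 0.53 and adjusted p-values of 0.453 to 0.841.

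HI calf 553, the highest HI calf for STRA6, was at 2949 CPM for FSHB, 167 CPM for VCAN and 14.7 CPM for FST. Each of these was the highest value among HI calves, and the HI medians were 429, 43.4 and 2.98 CPM. Without that calf the slopes on STRA6 were 0.72 for FSHB, 0.59 for VCAN and 0.52 for FST, the lowest of the 28 fits that left out 1 calf. In MOD calves, FSHB was at 987 CPM in calf 1082, which had the lowest STRA6 (7.99 CPM), and at 3289 CPM in calf 2537, which had the highest (30.8 CPM). The lowest FSHB of a MOD calf, 347 CPM, was that of calf 2551, which had STRA6 at the MOD median of 15.0 CPM. Both gonadotroph markers that could be tested, FSHB and FST, had positive slopes over the 2 diets, and neither passed the test.

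**Figure D3:**
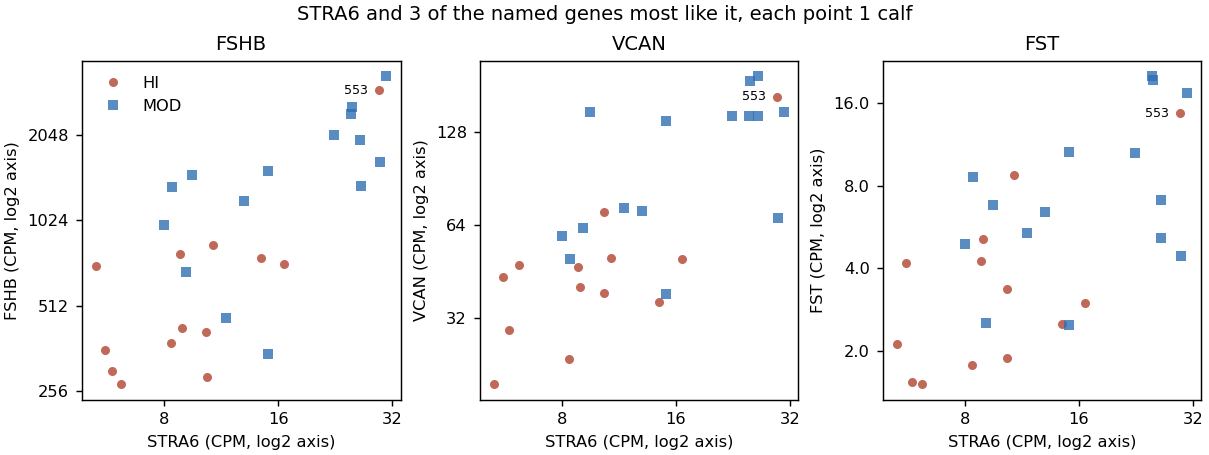
CPM of FSHB, VCAN and FST against CPM of STRA6 on log2 axes, each point 1 calf (HI n = 13, circles; MOD n = 15, squares). HI calf 553, at 29.5 CPM of STRA6, lies among the highest MOD calves in all panels.

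The most negative r with STRA6 were those of DIRAS2 (-0.45), a Ras-like GTPase, CACNA1I (-0.42), a T-type calcium channel, and IQGAP3 (-0.39), each with an adjusted p-value of 1.00. Without HI calf 553 the slope on STRA6 went from -0.37 to -0.22 for DIRAS2 and from -0.35 to -0.21 for IQGAP3. Of the 30 genes on the retinoid list, 2 could be tested. RLBP1, which binds retinal, had a slope on STRA6 of -0.12 (SE 0.21), and ALDH1A3, which turns retinal into retinoic acid, had a slope of -0.07 (SE 0.24). Neither passed. Other genes of retinoid uptake and response, such as the retinoic acid receptors, were not analysed here.

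TIPARP had 285 genes with a slope at an adjusted p-value below 0.05, of which 178 were positive (1.19% of genes) and 107 negative (0.716%). Among genes with a symbol, 8 passed, and 7 of these were positive. ARRDC2, an arrestin-domain protein, had the largest r, 0.81 over both diets (rho 0.58), 0.40 in HI and 0.89 in MOD. It rose by 0.90 log2 units per doubling of TIPARP (SE 0.13, limma adjusted p = 0.000206). KLF4, a transcription factor induced early by many stimuli, rose by 0.57 (SE 0.11, adjusted p = 0.00678), with r = 0.34 in HI and 0.81 in MOD.

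ALDH1A3 rose by 1.12 log2 units per doubling of TIPARP (SE 0.24, limma adjusted p = 0.0146), and PDK4, which restrains pyruvate dehydrogenase, rose by 0.91 (SE 0.20, adjusted p = 0.0175). ZGRF1, a DNA helicase, and CEBPD, a transcription factor that glucocorticoids induce, rose by 0.46 (SE 0.11, adjusted p = 0.0215) and 0.36 (SE 0.09, adjusted p = 0.0228). CDC42EP4, which binds the GTPase CDC42, rose by 0.51 (SE 0.12, adjusted p = 0.0267). MSC, the repressor musculin, fell by 0.88 per doubling of TIPARP (SE 0.16, adjusted p = 0.00383), with r = -0.71 in HI and -0.73 in MOD. PCP4, a small regulator of calmodulin, and TTC9B had r of -0.54 and -0.53 and did not pass (adjusted p = 0.0626 and 0.0841). PCP4 passed with the edgeR quasi-likelihood F-test (slope -0.68, adjusted p = 0.0348) and with limma in HI calves only (slope -1.67, adjusted p = 0.00491).

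MOD calves 3622 and 911, the highest for TIPARP, stood at an end of the range for most of these genes. ARRDC2 was at 37.1 and 25.7 CPM in them, while the other 13 MOD calves were at 5.46 to 11.3 CPM. KLF4 was at 11.7 and 8.85 CPM, against 6.41 or less in the other MOD calves. PDK4 was at 268 and 252 CPM, against at most 124 CPM, and CEBPD was at 200 and 217 CPM, against at most 193 CPM. ALDH1A3 was at 11.4 and 4.61 CPM, against at most 3.74 CPM. MSC was at 1.89 and 1.91 CPM, below the 3.38 CPM of the next lowest MOD calf.

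**Figure D4:**
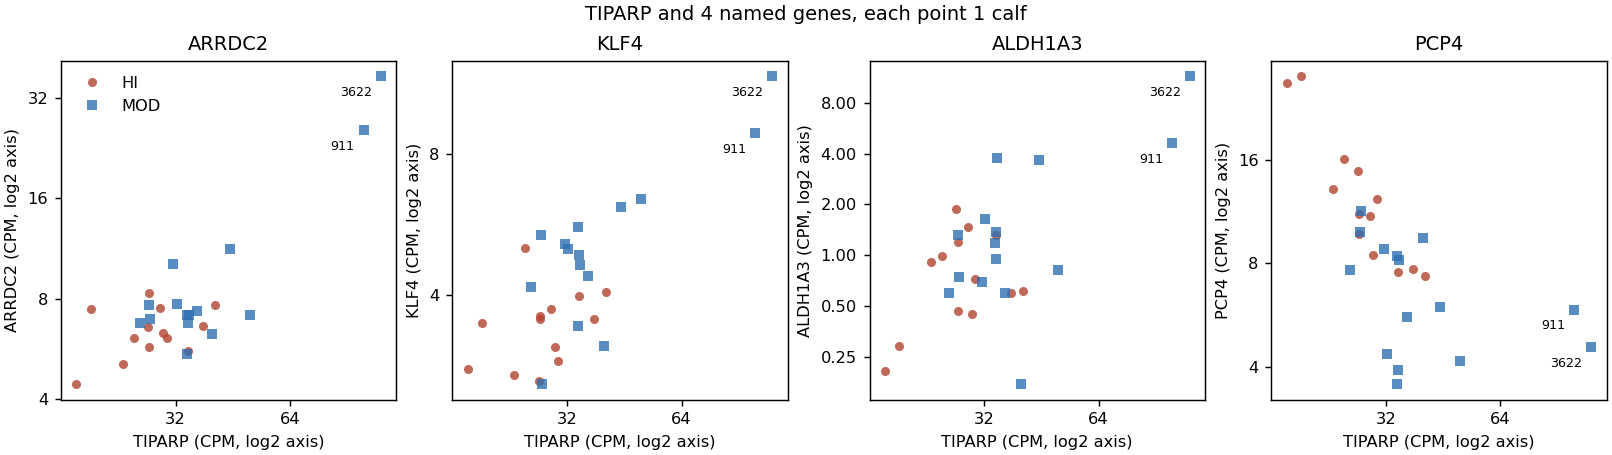
CPM of ARRDC2, KLF4, ALDH1A3 and PCP4 against CPM of TIPARP on log2 axes, each point 1 calf (HI n = 13, circles; MOD n = 15, squares). MOD calves 3622 and 911 lie at the right, highest for ARRDC2, KLF4 and ALDH1A3, and PCP4 falls over the range of the HI calves.

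Without these 2 calves, a choice made after seeing the values, 1443 genes passed with TIPARP. Of these, 787 were positive (5.27% of genes) and 656 negative (4.39%), and 88 were among the 285 genes called with all calves. ARRDC2 then had a slope of 0.23 (adjusted p = 0.365), KLF4 0.35 (adjusted p = 0.235), ALDH1A3 0.49 (adjusted p = 0.440) and PDK4 0.42 (adjusted p = 0.441). CEBPD had 0.43 (adjusted p = 0.0605), CDC42EP4 0.21 (adjusted p = 0.543) and MSC -0.56 (adjusted p = 0.176), so that none of these 7 passed. ZGRF1 still passed (slope 0.58, limma adjusted p = 0.0498), and PCP4 now did, falling by 1.37 per doubling of TIPARP (SE 0.25, limma adjusted p = 0.0147). With only 1 of these 2 calves left out, whichever it was, KLF4, ALDH1A3, PDK4, ZGRF1, CEBPD, CDC42EP4 and MSC did not pass (limma adjusted p = 0.0568 to 0.142), while ARRDC2 passed in all 28 fits without 1 calf. The slopes of the 7 genes that did not pass were 0.46 and 0.57 for KLF4, 0.78 and 1.15 for ALDH1A3, 0.80 and 0.81 for PDK4, and 0.52 and 0.47 for ZGRF1 (without 3622 and without 911, in that order). They were 0.41 and 0.35 for CEBPD, 0.45 and 0.44 for CDC42EP4, and -0.82 and -0.80 for MSC. When the member was entered as ranks within its diet, which limits the pull of any calf, 14 genes passed with TIPARP, and none of the 8 named genes above did, ARRDC2 and ZGRF1 included (limma adjusted p = 0.0834 to 0.189). Their slopes kept their signs on ranks, at 0.61 for ARRDC2, 0.42 for KLF4, 0.79 for ALDH1A3 and 0.58 for PDK4. For ZGRF1, CEBPD, CDC42EP4 and MSC they were 0.45, 0.32, 0.38 and -0.60.

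PCP4 was the named gene whose slope on TIPARP differed between diets. Its r was -0.93 in HI and -0.39 in MOD, and the slope in HI minus that in MOD was -1.35 (SE 0.35, limma adjusted p = 0.0438). In HI, PCP4 was at 26.8 CPM in calf 2535, which had the lowest TIPARP, and at 7.34 CPM in calf 1050, which had the highest. Over all genes, 350 (2.34%) had a slope on TIPARP that differed between diets (3436 at an unadjusted p-value below 0.05 by limma). On GREB1L there was 1 such gene (0.00669%, with 2801 unadjusted), and on STRA6 there were 0 (723 unadjusted). Without MOD calves 3622 and 911 the count for TIPARP was 0 by limma (1240 at an unadjusted p-value below 0.05), and the difference for PCP4 was -0.78 (SE 0.50, adjusted p = 0.665).

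Of the lists, the one on AhR had 0 of its 13 genes with an identifier, so AhR and its other targets were not analysed here. TIPARP was the only member with called genes on any list. The list genes that could be tested are among the 158 genes with a symbol, all of which the study listed as differing between diets. Of these 158 genes, 8 passed with TIPARP, 7 of them positive. Of the genes that passed, CEBPD, PDK4, KLF4 and ALDH1A3 are on a list and the others are on none. Over all genes tested, 1.19% passed with a positive and 0.716% with a negative slope. Of the 13 glucocorticoid-inducible genes, 3 could be tested and 2 rose with TIPARP (CEBPD and PDK4), and TXNIP, which binds thioredoxin, had a slope of 0.32 (SE 0.11, adjusted p = 0.105). Of the immediate early and inducible feedback genes, 1 of 13 rose (KLF4), and the median slope of the 13 was 0.49, with 10 positive, against a median of 0.01 over all genes tested. Without MOD calves 3622 and 911 that median turned to -0.08, with 4 of 13 positive. FOSB, MAFF and CREM had slopes of 1.37, 0.74 and 0.55 with adjusted p-values of 0.0592, 0.0847 and 0.0723, while EGR1 and JUNB had slopes of -0.40 and -0.64 (adjusted p = 0.614 and 0.242). Without the same 2 calves the slopes of FOSB, MAFF and CREM were 0.22, -0.08 and -0.06 (adjusted p = 0.857, 0.914 and 0.909). Of the 30 retinoid genes, 2 could be tested and 1 rose (ALDH1A3). Without MOD calves 3622 and 911, 0 genes of any list passed with any member.

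Markers of other cells did not pass with TIPARP either. The 3 immune markers had slopes of -0.48 (CX3CR1, of macrophages), -0.67 (TIMD4, of resident macrophages) and -0.39 (CD79B, of B cells), with adjusted p-values of 0.187, 0.0746 and 0.122. Without MOD calves 3622 and 911 these slopes were 0.03, -0.74 and -0.49 (adjusted p = 0.972, 0.176 and 0.180). With all calves, the r of CX3CR1 with TIPARP was 0.18 in HI and -0.67 in MOD. The gonadotroph genes FST and FSHB had slopes of 0.85 and 0.66 (adjusted p = 0.0920 and 0.251). Of the smooth muscle, endothelial and glial markers, 5 were tested against each member and 0 passed, and the same held for the 2 somatotroph markers, CSHL1 and GHRHR. The corticotroph and thyrotroph markers were not analysed here.

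**Figure D5:**
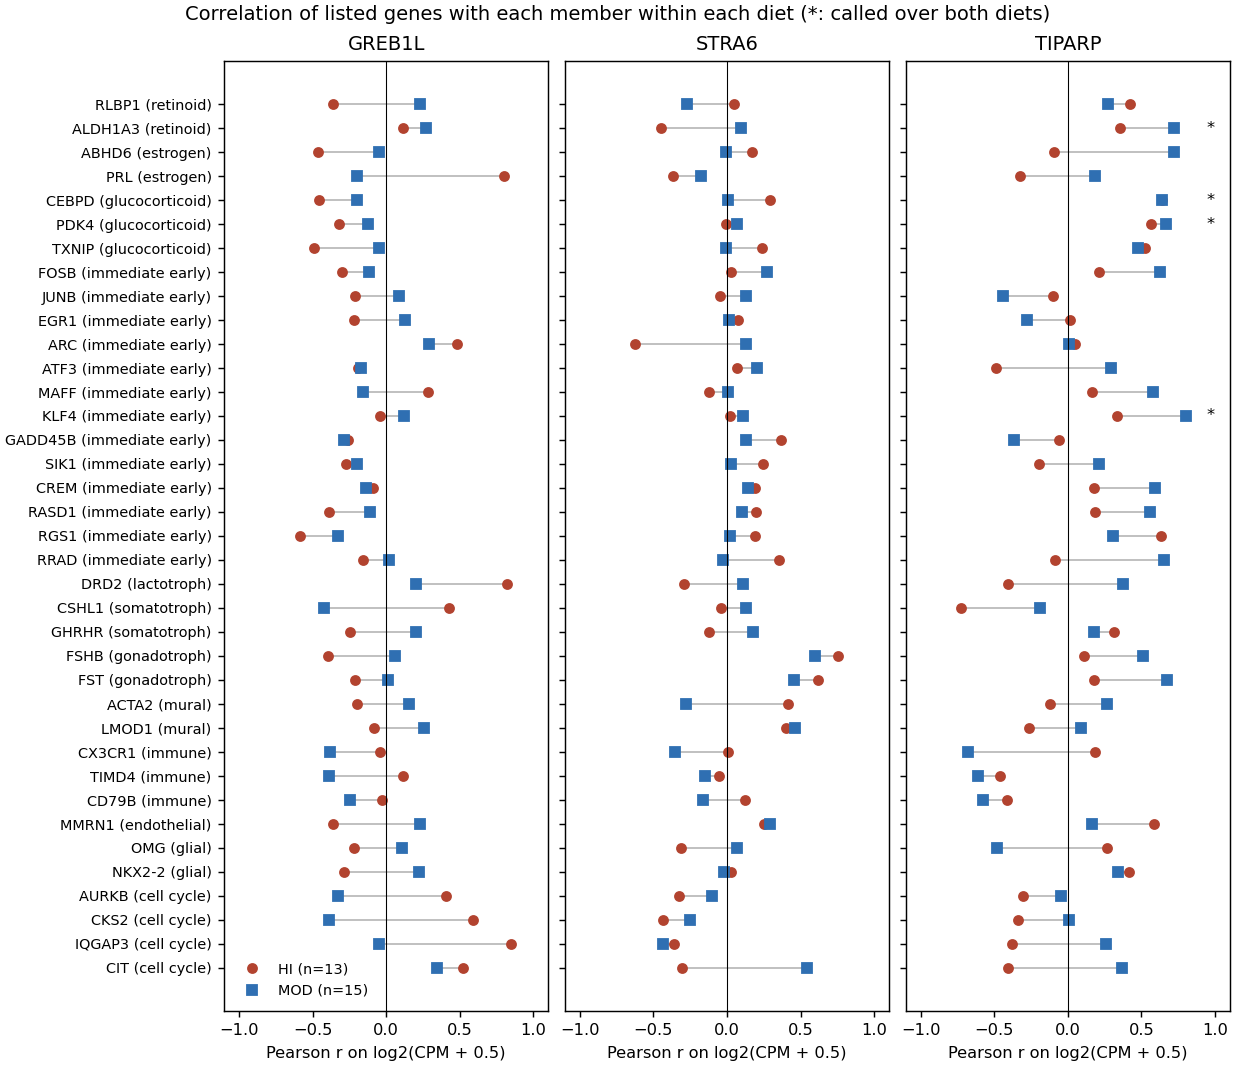
Pearson r on log2(CPM + 0.5) of each listed gene with GREB1L, STRA6 and TIPARP, in HI calves (circles, n = 13) and in MOD calves (squares, n = 15); an asterisk marks a gene that passed over both diets. With GREB1L, DRD2, PRL and IQGAP3 lie at 0.80 to 0.85 in HI and at -0.20 to 0.20 in MOD; with STRA6, FSHB lies at 0.76 and 0.60; with TIPARP, KLF4 lies at 0.34 and 0.81.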

How the data were processed

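The data are mRNA-seq of anterior pituitary from 28 heifer calves. According to the submitters' processing notes, reads were checked with FastQC 0.11.8, trimmed with cutadapt 2.6, aligned to ARS-UCD1.2 with STAR 2.6.1 and analysed with edgeR 3.5 in R 3.4. The authors deposited a normalized signal, namely reads per gene scaled to 1000000 on TMM-adjusted library sizes, although the table is described as counts. Whole reads were recovered from the steps of each column (100% of positive values whole within 0.05), and no pair of libraries agreed within sampling noise (smallest chi-square per gene 12.2). Diet and calf number came from the labels.

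Genes were kept with filterByExpr of edgeR 4.0.16. With limma 3.58.1 (R 4.3.3), slopes on each member and the diet contrast were fitted to log2(CPM + 0.5) values. The fits used trended and robust moderation and Benjamini-Hochberg adjustment over all genes. The 0.5 added to CPM understates changes of low genes. The quasi-likelihood F-test and the exact test of edgeR and DESeq2 1.42.0 were run on the recovered reads as alternatives. Correlations of members used 2-sided permutation within diets with 100000 resamples. The fits were tested on simulated data.

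The members and lists were chosen with earlier results of these data known. Named genes are the members, list genes that could be tested, and, for each member, the 5 highest and 3 lowest diet-centred r among genes with a symbol. CDC42EP4 was named outside this rule, after its values were seen, because it passed the test. Symbols came from the study's own list of genes that differed between diets (159 of 195 identifiers). The gene table at hand is of another assembly and holds no Ensembl identifiers, so no coordinates or sequences are given.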

Additional observations from a re-analysis of the deposited data

Results flagged for a closer look

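The slope of PCP4 on TIPARP differed between diets by -1.35 (HI minus MOD, log2 change per doubling, SE 0.35), with an adjusted p-value of 0.0438 in the limma fit with a term for the interaction of diet and TIPARP. The term was added after seeing the data. Without MOD calves 3622 and 911 the difference was -0.78 (SE 0.50, adjusted p = 0.665).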

How the results depend on the processing

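With GREB1L, 46 genes passed, and the count was 29 with no filter other than 1 read, 26 with library size as a covariate, 27 in HI calves only, 0 in MOD calves only (limma, 3021 at an unadjusted p-value below 0.05) and 12 to 70 when each calf was left out in turn (12 without HI calf 3620, 70 without MOD calf 2551). Its partners CAMK1D, ETV1 and CHL1 had slopes of 0.81, 0.64 and 1.05 in MOD calves only, with adjusted p-values of 0.0677 to 0.0809, and CAMK1D had 0.73 in HI calves only (adjusted p = 0.0613). With STRA6 the count was 0 under every alternative except that 1 gene passed without HI calf 1089 and 1 without MOD calf 991. With TIPARP, 285 genes passed, and the count was 515 with the other 2 members as covariates, 14 with ranks, 2 in HI calves only, 137 in MOD calves only, 1443 without MOD calves 3622 and 911 (added after seeing the data) and 25 to 441 when each calf was left out in turn (25 without MOD calf 3622, 441 without HI calf 1388). Genes called between diets numbered 125, 219 with the exact test of edgeR, 211 with DESeq2 and 100 to 170 without 1 calf. The log2 difference between diets stayed within 0.48 to 0.64 for GREB1L, -0.88 to -0.68 for STRA6 and -0.57 to -0.42 for TIPARP when each calf was left out. The correlation of GREB1L and STRA6 turned positive as Spearman rho (0.0914) and in MOD calves only (0.17), and ran from -0.0991 to 0.0933 without 1 calf. That of GREB1L and TIPARP was 0.20 in MOD calves only and -0.136 to 0.0310 without 1 calf, and that of STRA6 and TIPARP was -0.20 in HI calves only and 0.22 to 0.35 without 1 calf. The cause of these changes was not tested. The study allocated calves to diets within blocks, but the labels give no block and each calf number is unique to its animal. No paired or blocked analysis was therefore possible. STRA6 had the fewest reads of the 3 members, 65 in the lowest calf. Symbols were at hand for 158 of the genes tested, so most called genes are counted and not named.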
